A study of Caenorhabditis elegans with 4 samples.

Results

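The regions described are the RNA polymerase II peaks on chromosome III of *Caenorhabditis elegans*, taken as all peaks that the lists place on III. They came to 501 of the 2672 peaks of ChIP replicate 1, 705 of the 3818 peaks of ChIP replicate 2 and 3549 of the 18518 peaks of a list made for the series as a whole. Chromatin immunoprecipitation and sequencing were done on whole embryos of mixed stage from the wild-type strain N2, a mixed population of males and hermaphrodites kept at 20 °C. Live embryos were fixed in 2% formaldehyde for 30 min, and an affinity-purified rabbit polyclonal antibody against AMA-1 was used for precipitation from 2 mg of extract. The labels name 2 ChIP samples and 2 input samples, numbered 1 and 2 in each group, and no values of the inputs were analysed here. Nothing in the labels says that the replicates came from separate cultures, so differences between them may be technical, and each value averages over all cells of the embryos.

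AMA-1 is the largest and catalytic subunit of RNA polymerase II, which transcribes protein-coding genes and many small non-coding RNAs. A polymerase peak marks DNA on which the enzyme was engaged, paused or otherwise bound, and a broad peak may span a gene or several neighbours. Worm autosomes have a gene-rich centre that recombines little, flanked by arms that recombine more and hold more repeats. Many worm genes lie close together, some of them in operons transcribed from a shared promoter.

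By midpoint, III was divided at 3.72 and 10.34 Mb (build WS220). The left arm held 95 peaks of replicate 1, 165 of replicate 2 and 796 of the series-level list. The centre held 268, 368 and 1874 peaks of the same lists, and the right arm 138, 172 and 879. At the left border the nearest replicate 1 peaks scored 57.1 outside and 222 inside the centre, and those of replicate 2 scored 534 outside and 502 inside. At the right border they scored 151 inside and 122 outside in replicate 1, and 2966 inside and 325 outside in replicate 2. The score is the authors' own value for each peak, on a scale that is not stated. In the replicate lists many peaks tie at exactly 3100, here called the ceiling. Some scored higher, up to 3227 on III in replicate 1 and 3191 in replicate 2. Whether a score above 3100 marks a stronger peak is not known. The score was therefore used to rank or describe peaks within a list, with percentiles over the whole list, and was set against another list's score only in a correlation over sites. No count of reads lies behind any value, so depth is unknown, and all 95% intervals cover counting error only. Neighbouring peaks are not independent, so the true uncertainty is wider.

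The first comparison asked how densely polymerase peaks lay on III. Peaks were denser on III than on the other autosomes together in all 3 lists, and no difference from I was detectable. In replicate 1, III held 36.4 peaks per Mb (95% Poisson interval 33.3 to 39.7) and the other autosomes held 26.8 (25.6 to 28.1). In replicate 2 the densities were 51.2 (47.5 to 55.1) on III and 37.95 (36.5 to 39.4) on the other autosomes. The ratio of III to the other autosomes was 1.35 ± 0.0045 (SD, n = 2 replicates), and its exact interval was 1.23 to 1.50 for replicate 1 and 1.24 to 1.47 for replicate 2.

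That ratio averages very different chromosomes. Against V the ratio was 1.91 ± 0.026, against IV 1.47 ± 0.066 and against II 1.21 ± 0.0039 (SD, n = 2 each). Against I it was 0.969 (0.858 to 1.10) in replicate 1 and 0.985 (0.889 to 1.09) in replicate 2, so a difference between III and I was not detectable in either list. In the series-level list, III held 258 narrow peaks per Mb and I held 252, a ratio of 1.02 (0.975 to 1.07). Peaks covered 14.8% of III and 11.2% of the other autosomes in replicate 1, and 22.9% of III and 17.2% of the other autosomes in replicate 2.

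**Figure D1:**
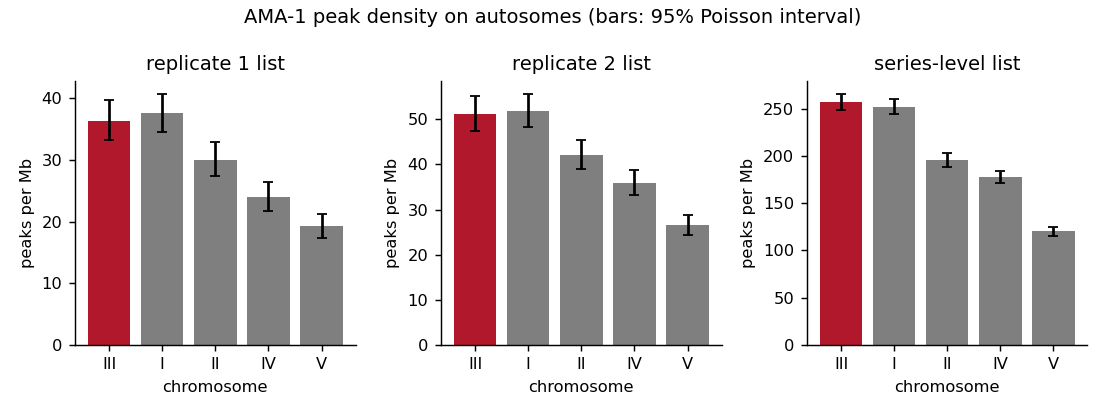
Peaks per Mb on III (red) and on I, II, IV and V (grey) in the replicate 1, replicate 2 and series-level lists; bars show density and whiskers the 95% Poisson interval. III and I are the tallest in every panel, with 36.4 and 37.5 peaks per Mb in replicate 1, and V is the lowest, with 19.2.

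Widths on III were close to those on the other autosomes. Their median width was 3134 bp in replicate 1, 3266 bp in replicate 2 and 401 bp in the series-level list. The medians on the other autosomes were 3222, 3245 and 407 bp in the same lists. The quartiles of replicate 1 widths on III were 1957 and 4981 bp, and the widest replicate 2 peak on III spanned 32130 bp. The median scores on III were 196 in replicate 1 and 378 in replicate 2, against 210.5 and 384 on the other autosomes in the same lists.

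The next comparison set the centre of III against its arms. The centre was denser than both arms together, and the left arm was the sparse one. In replicate 1 the left arm held 25.5 peaks per Mb (20.7 to 31.2), the centre 40.5 (35.8 to 45.6) and the right arm 40.2 (33.7 to 47.4). In replicate 2 the same parts held 44.4 (37.9 to 51.7), 55.6 (50.1 to 61.6) and 50.05 (42.9 to 58.1) peaks per Mb. The ratio of centre to arms was 1.21 ± 0.045 (SD, n = 2) on III and 1.31 ± 0.062 on the other autosomes, whose borders were set at the same relative positions.

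The 2 arms of III differed from each other in replicate 1, as did those of II. The ratio of centre to left arm was 1.59 (1.25 to 2.02) in replicate 1. In replicate 2 it was 1.25 (1.04 to 1.51). Against the right arm the ratios were 1.01 (0.818 to 1.25) and 1.11 (0.924 to 1.34), and both intervals include 1. The ratio of right to left arm was 1.57 (1.20 to 2.06) in replicate 1. It was 1.13 (0.906 to 1.41) in replicate 2, where a difference between the arms was not detectable. In the series-level list it was 1.195 (1.085 to 1.317). On II the same ratio was 1.84 (1.37 to 2.47) in replicate 1 and 1.28 (1.01 to 1.625) in replicate 2. A left arm sparser than the right was thus not particular to III. On I, IV and V the ratios were 0.774, 0.691 and 0.604 in replicate 1, and 1.01, 0.575 and 1.07 in replicate 2.

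The right arm was where III stood farthest above the other autosomes. Its density exceeded that of their right arms by a ratio of 1.86 (1.51 to 2.26) in replicate 1, 1.53 (1.28 to 1.82) in replicate 2 and, for narrow peaks of the series-level list, 1.76 (1.62 to 1.90). In the centre the ratio was 1.30 (1.14 to 1.49) in replicate 1 and 1.31 (1.16 to 1.47) in replicate 2, where the intervals of centre and right arm overlap. For the left arm it was 1.06 (0.838 to 1.32) in replicate 1 and 1.28 (1.08 to 1.52) in replicate 2. The single right arms differed widely. In replicate 1 they held 30.09 peaks per Mb on I, 33.85 on II, 17.45 on IV and 10.17 on V, against 40.15 on III. In replicate 2 they held 50.32, 41.98, 23.65 and 20.72, against 50.05 on III, so III was not above I there.

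Within these parts density moved up and down by the megabase. Over the 13 full windows of 1 Mb on III, replicate 1 held 14 to 57 peaks (median 34), replicate 2 held 34 to 69 (median 51) and the series-level list 153 to 343 (median 249). The window from 1000001 to 2000000 was the lowest in all 3 lists. The most replicate 1 peaks lay from 12000001 to 13000000, in the right arm, with 57. In the window from 5000001 to 6000000, in the centre, the series-level list reached its highest count and replicate 2 held 69 peaks, as many as it held from 8000001 to 9000000. Inside the centre, the window from 6000001 to 7000000 was sparse, with 31 replicate 1 peaks and 40 replicate 2 peaks.

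**Figure D2:**
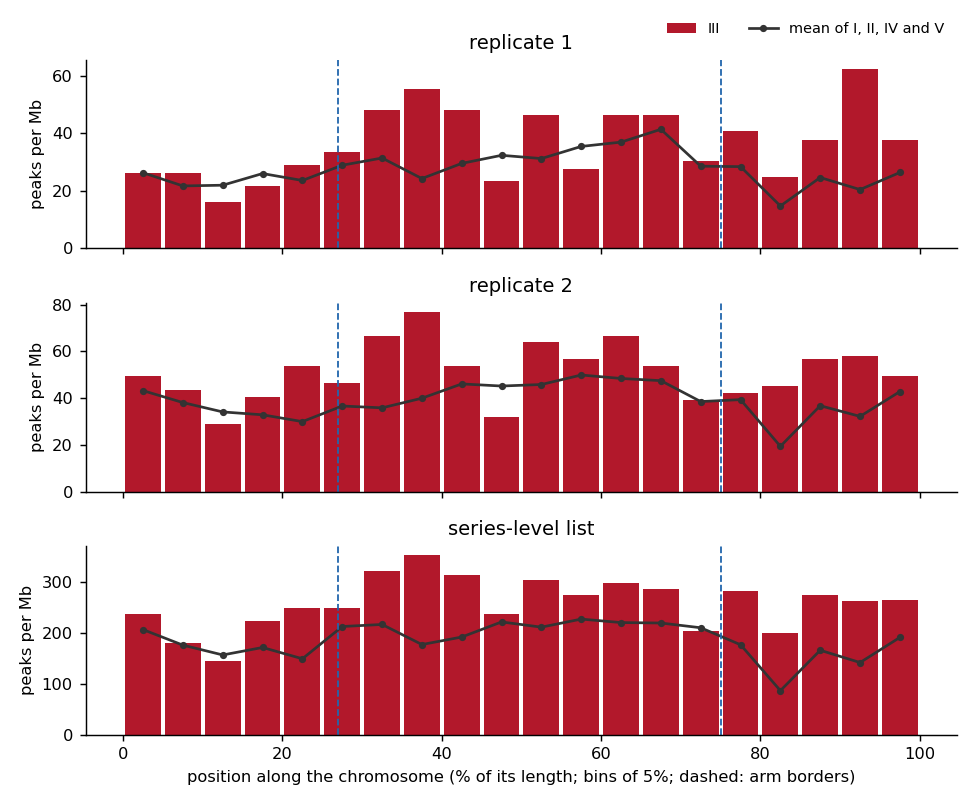
Peaks per Mb along III (red bars, bins of 5% of the chromosome length) and the mean of I, II, IV and V at the same relative position (line), for the replicate 1, replicate 2 and series-level lists, with dashed lines at the arm borders. On III, replicate 1 runs between 15.97 peaks per Mb in the left arm and 62.4 in the right arm, and the bin centred at 47.5% of the length is low in the middle of the chromosome, with 23.2.

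The centre also held the broader and higher-scoring replicate peaks, on III as on the other autosomes. Median widths on III were 3707 bp in the centre and 2562 bp on the arms in replicate 1, and 3714 and 2752 bp in replicate 2. The median percentiles of the score were 52.2 in the centre and 40.6 on the arms in replicate 1, and 54.02 and 44.96 in replicate 2. On the other autosomes the median widths were 3640 bp in the centre and 2680 bp on the arms in replicate 1, with median percentiles of 53.3 and 45.3. Peaks in the top decile of replicate 2, which are those at or above the ceiling, numbered 43 of 368 in the centre (11.7%, Wilson interval 8.79 to 15.4), 9 of 165 in the left arm (5.45%, 2.90 to 10.04) and 10 of 172 in the right arm (5.81%, 3.19 to 10.4). Those intervals overlap, which does not settle whether the parts differ, and intervals of the differences between parts are not given here. The same parts of the other autosomes had 10.8%, 9.98% and 10.4%, and 10.3% of all replicate 2 peaks were in that decile. In replicate 1 the shares were 11.2% in the centre, 9.47% in the left arm and 9.42% in the right arm, with overlapping intervals.

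Stretches without any replicate peak were short on III, as they were on I. The longest ran for 206.6 kb in the left arm, from 1627501 to 1834085, and held 6 series-level peaks with scores up to 10.2. It was followed by stretches from 1222598 to 1405402 (182.8 kb), with no series-level peak at all, and from 1952731 to 2101876 (149.1 kb), with 5. All of these 3 lay in the left arm. The longest stretch was 203.1 kb on I, 324.1 kb on II, 421.2 kb on IV and 697.8 kb on V. III had 5 stretches of at least 100 kb, against 9 on I, 15 on II, 20 on IV and 39 on V. These counts are not adjusted for length, which ran from 13.78 Mb for III to 20.9 Mb for V. Of 137 full windows of 100 kb on III, 14 (10.2%) had no base in peaks of both lists, whereas 18.1% of such windows elsewhere on autosomes had none. The share was 8.67% on I, 13.2% on II, 16.1% on IV and 30.3% on V. In the median window 10.96% of bases were covered in both replicates on III and 7.42% on the other autosomes.

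The windows of III with most bases covered in both replicates lay in the centre and near the right end. From 6900001 to 7000000, 40.8 kb were covered in both, with 6 peaks in each replicate and 31 series-level peaks. From 13600001 to 13700000 the figure was 31.5 kb, with 37 series-level peaks, and from 9500001 to 9600000 it was 31.3 kb, with 45. The best-covered window thus closed the full megabase of the centre with fewest peaks in either replicate list.

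The question of how narrow peaks group into broad domains was addressed with shared domains, which are runs of overlapping replicate peaks that hold at least 1 peak of each replicate. III held 338 of them, 24.5 per Mb, against 20.0 per Mb on the other autosomes. They covered 2.17 Mb or 15.8% of III, against 12.7% of the other autosomes. Their median width was 5178 bp on III (quartiles 3463 and 8129 bp) and 5358 bp on the other autosomes. Of the 338 domains, 331 (97.9%) held a single replicate 2 peak, and in 175 (51.8%) a single replicate 2 peak covered the whole run. On the other autosomes these shares were 98.1% and 46.8%. In 60 domains of III (17.8%) there were several separate replicate 1 peaks, against 14.2% of domains on the other autosomes, a difference of 3.53 points (interval -0.658 to 8.29).

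Domains with many narrow peaks made up a larger share on III than on the other autosomes together, and no difference from I was detectable. The mean was 4.42 ± 3.25 series-level peaks on III (SD over domains, n = 338) and 4.08 ± 2.77 on the other autosomes (n = 1371). Per 10 kb of domain these were 6.87 narrow peaks on III and 6.41 on the other autosomes. Domains with 10 or more narrow peaks numbered 29 of 338 on III, or 8.58%, where 5.68% of all shared domains had as many. On the other autosomes the share was 4.81%, so III was higher by 3.77 points (0.929 to 7.38). Against I, where 24 of 391 domains had as many, the difference was 2.44 points (-1.36 to 6.44), and against IV it was 3.04 points (-0.924 to 7.05). Both of these intervals include 0, whereas those against II (5.04 points, 1.45 to 8.82) and V (4.78 points, 1.06 to 8.61) do not. Most domains were small, and 42 on III (12.4%) held a single narrow peak. Narrow peaks filled 65.9% of the domain bases on III and 65.9% on the other autosomes, so the bases in narrow peaks took up a like share in both. Across the 338 domains the number of narrow peaks was larger in wider domains (Spearman rho 0.81, a description over domains of 1 chromosome).

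**Figure D3:**
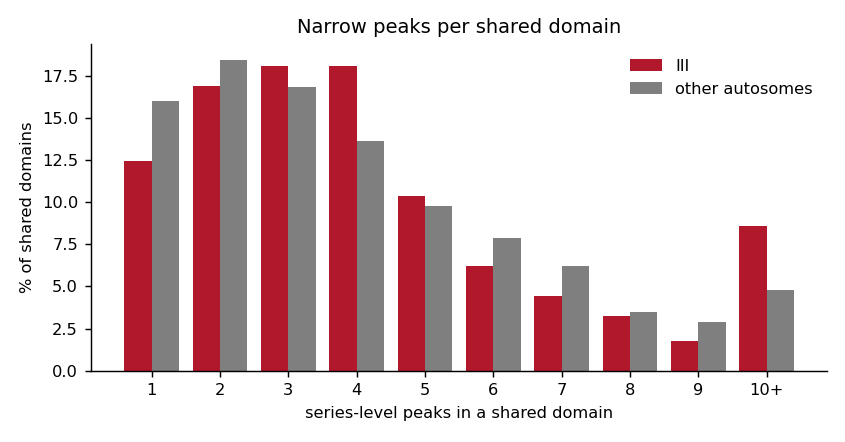
Percent of shared domains (vertical axis) that hold a given number of series-level peaks (horizontal axis, 10+ for 10 or more), for III (red) and for I, II, IV and V together (grey). Domains with 1 narrow peak made up 12.4% on III and 15.97% on the other autosomes, and those with 10 or more made up 8.58% and 4.81%.

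By part of the chromosome, shared domains held 3.74 ± 2.53 narrow peaks in the left arm (SD over 66 domains), 4.71 ± 3.42 in the centre (189 domains) and 4.29 ± 3.30 in the right arm (83 domains). The other autosomes had means of 3.62, 4.36 and 3.84 in the same parts. Domains were narrowest in the right arm of III, with a median of 3976 bp, and widest in the centre, with 5847 bp. Narrow peaks were most closely packed in the right arm, at 7.22 per 10 kb of domain, against 6.72 in the centre and 6.95 in the left arm.

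The crowding of narrow peaks was also measured without the replicate lists, as chains of series-level peaks with at most 1000 bp between neighbours. On III, 2476 of 3549 peaks lay in chains of 3 or more, or 69.8% (Wilson interval 68.2 to 71.3), where 68.5% of all series-level peaks did. The share was 67.6% on the other autosomes, which put III higher by 2.20 points (0.459 to 3.90). Chains form more readily where peaks are denser, and against I, with its 252 narrow peaks per Mb, the difference was 1.43 points (-0.684 to 3.54) and not detectable. Chains of 10 or more peaks numbered 51 on III, 3.70 per Mb, against 3.79 per Mb on I and 2.18 per Mb on the other autosomes together. The median gap between neighbouring narrow peaks was 529.5 bp on III and 563 bp on the other autosomes. In the centre of III 73.96% of peaks were chained, against 62.6% in the left arm and 67.4% in the right arm. The other autosomes had 71.1%, 63.03% and 63.8% in the same parts, so the higher share in the centre was not particular to III.

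The longest chains of III were not its strongest sites. A chain of 23 narrow peaks ran over 25127 bp in the right arm, from 11454188 to 11479314, with a best series-level score of 80.6. It overlapped 5 replicate 1 peaks but 1 replicate 2 peak. A chain of 19 lay in the left arm from 1918983 to 1934573, beside the peak-poor stretches there, with a best score of 36.9. The third, with 18 peaks, ran from 4934612 to 4951482 in the centre with a best score of 38.7.

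Among shared domains, the one with most narrow peaks lay in the centre from 4587264 to 4611291. It held 24 of them over 24028 bp, yet their median score was 3.78, and its best replicate peaks ranked at percentile 90.2 in replicate 1 and 55.9 in replicate 2. The next, from 4934137 to 4950275, held 17 and ranked at 79.3 and 56.3. A domain from 9450226 to 9471242 also held 17, and there the replicate ranks were 97.8 and 83.9. Many narrow peaks in a run thus came with middling as well as high replicate scores.

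Per peak, no excess or lack of strong sites was detectable on III. At or above the score ceiling lay 18 of 501 replicate 1 peaks on III (3.59%, 2.29 to 5.61), where 4.12% of all replicate 1 peaks did. In replicate 2 they were 62 of 705 (8.79%, 6.92 to 11.1), where 10.3% of all peaks did. Domains at or above the ceiling in both replicates numbered 15 of 338 on III (4.44%) and 63 of 1371 on the other autosomes (4.60%), a difference of -0.157 points (-2.29 to 2.77). Of the 15, 2 lay in the left arm, 9 in the centre and 4 in the right arm.

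The strongest domain of III by mean percentile lay in the centre from 9042356 to 9065576. It was the only one of the named domains on III above the ceiling in replicate 1, with a score of 3227, and it held 13 narrow peaks that filled 85.7% of its 23221 bp. Its first place rests on that replicate 1 score, and whether 3227 marks a stronger peak than 3100 is not known. Its replicate 2 score, and both replicate scores of the 9 domains named next, were exactly 3100, so their order follows the number of bases covered in both replicates and not a difference in strength.

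Of those 9, the domain from 6948936 to 6966644, in the centre, had 16605 bases in peaks of both replicates. It was made of 4 narrow peaks, the best of which scored 79.7 in the series-level list. A contrast was the domain from 8289965 to 8307118, where replicate 1 had 4 separate peaks and replicate 2 a single one. There 12 narrow peaks were found, and 1 of them, from 8300440 to 8306684, scored 142.9 against a median of 11.5 in the domain.

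In the left arm 2 domains tied at 3100 in both replicates. The one from 332669 to 353281 had more bases in peaks of both, with 4 replicate 1 peaks under 1 replicate 2 peak and 12 narrow peaks. Its replicate 1 peaks left more of the domain uncovered, and 73.1% of its bases were in peaks of both. Its best narrow peak spanned 7570 bp and scored 102.9. The other, from 832957 to 837406, held a single narrow peak, which scored 155. From 4269879 to 4283200 in the centre, by contrast, each replicate had a single peak with 95.8% of bases in both, and 1 of the 4 narrow peaks spanned 8176 bp.

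In the right arm 4 domains tied at 3100 in both replicates, and again the order follows the bases in peaks of both. The domain from 13060282 to 13075447 had 3 replicate 1 peaks and 10 narrow peaks, of which the best scored 92.1. The next, from 11930632 to 11940587, had a single peak in each replicate with 98.7% of bases in both, and 8 narrow peaks, of which the best scored 110.6. The other domains named lay in the centre, from 3862274 to 3874394, from 5124987 to 5135277 and from 5019562 to 5030535, with 4, 5 and 6 narrow peaks. The last of these held the narrow peak with the second-highest series-level score of the 10 domains, 134.2.

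**Figure D4:**
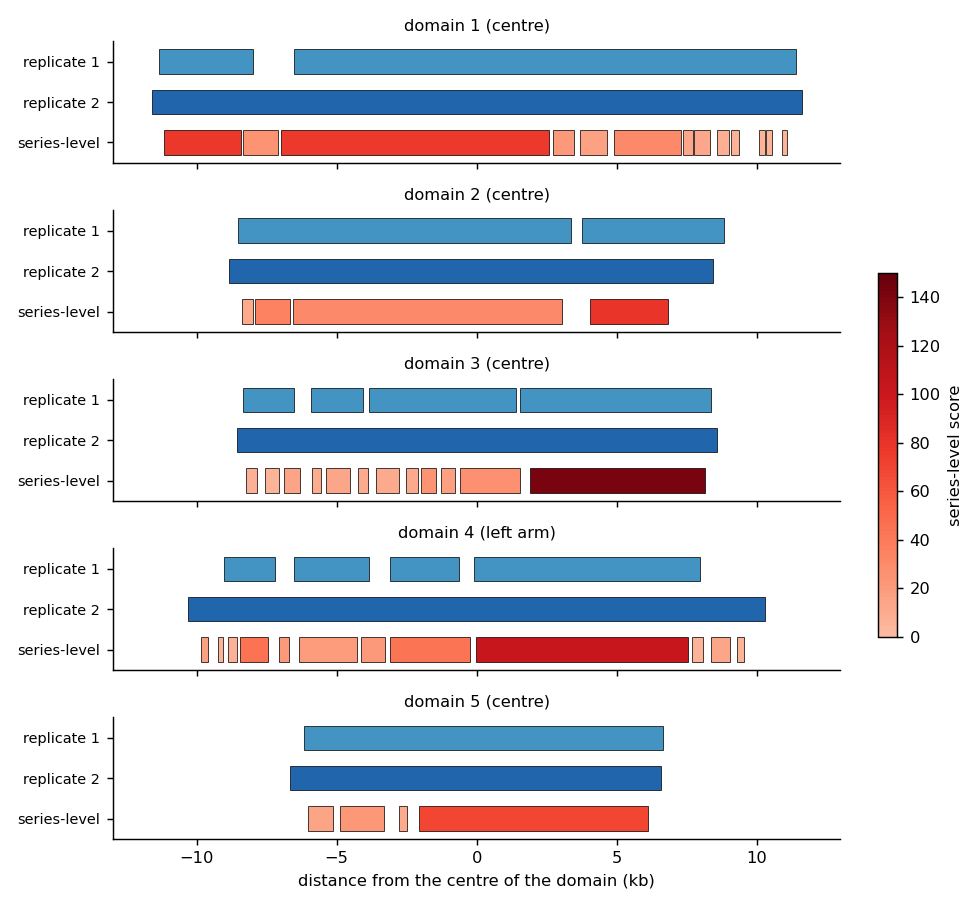
The first 5 named domains of III, drawn in kb from the centre of each domain: replicate 1 peaks (top row), the replicate 2 peak (middle row) and series-level peaks (bottom row, darker for a higher series-level score). A single replicate 2 peak runs through each domain, while replicate 1 has between 1 and 4 peaks and the series-level list between 4 and 13.

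Strong domains of III were wide and filled. The 34 domains in the top 10% by mean percentile had a median width of 11035.5 bp and a median of 5 narrow peaks, against 3819 bp and 3 for the 169 domains below the median. Narrow peaks filled 78.0% of the bases in the strong set and 55.8% in the weak one. Bases in peaks of both replicates made up 85.4% and 66.3% of the same sets. The width, score and fill of a peak are not independent measures, and these values are a description.

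The narrow peaks with the highest series-level scores gave another picture of III. Of the top 5, 4 lay in the right arm, 1 in the left arm and 0 in the centre, although the centre held 1874 of the 3549 narrow peaks. The first, from 12684412 to 12688077, scored 158 and ranked 7 in the whole list. It was the only narrow peak of its domain, with replicate scores of 1706 and 3100. The peak from 833421 to 836763 in the left arm scored 155 and was likewise alone in its domain, at the ceiling in both replicates. The peak from 12250116 to 12251312 spanned 1197 bp and scored 151, with 1 neighbour in its domain.

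The remaining 2 of the top 5 lay in crowded domains. From 13722988 to 13725123 a peak scored 157 in a domain of 9 narrow peaks, and from 12596741 to 12601717 a peak scored 152 in a domain of 16, where the replicate 2 score of 620 was at percentile 60.5. Among the top 20 narrow peaks the parts were more even, with 5 in the left arm, 8 in the centre and 7 in the right arm. In the top decile of the whole list were 209 of 1874 narrow peaks in the centre (11.2%, 9.81 to 12.7), 59 of 796 in the left arm (7.41%, 5.79 to 9.44) and 83 of 879 in the right arm (9.44%, 7.68 to 11.6), where 10% of all series-level peaks were. The intervals of centre and right arm overlap, which does not settle whether they differ. The same parts of the other autosomes had 11.1%, 9.31% and 10.4%.

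The last comparisons asked how far the replicates shared their peaks on III. Of the 501 replicate 1 peaks on III, 419 overlapped a replicate 2 peak by at least 1 bp, or 83.6% (Wilson interval 80.1 to 86.6), where 86.8% of all replicate 1 peaks did. Of the 705 replicate 2 peaks, 345 overlapped a replicate 1 peak, or 48.9% (45.3 to 52.6), where 52.6% of all replicate 2 peaks did. In replicate 1, III with 83.6% differed from the other autosomes with 86.98% by -3.35 points, and the interval of -7.14 to 0.0378 includes 0. In replicate 2 it was 48.9% against 53.6%, a difference of -4.69 points (-8.83 to -0.534). That interval includes 0 without the stretch from 10 to 12 Mb, where the difference was -3.14 points. It also includes 0 under a rule of at least 50% overlap, with -3.58 points. III had the lowest share of any autosome in both lists, but its differences from I and II had intervals including 0 in both. The interval against V excluded 0 in replicate 1 (-5.67 points, -10.06 to -1.15) and in replicate 2 (-9.44 points, -14.9 to -3.90). Against IV it excluded 0 in replicate 1 (-5.36 points, -9.75 to -0.868) and included 0 in replicate 2 (-3.38 points, -8.72 to 2.00).

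The lower sharing of replicate 1 peaks on III was seen in the highest score quartile. There 105 of 122 peaks on III were shared (86.1%, 78.8 to 91.1), against 430 of 457 on the other autosomes (94.1%), a difference of -8.03 points (-15.5 to -2.37). In each of the other quartiles the interval of the difference included 0. In replicate 2 the second quartile from the bottom differed, with 25.4% shared on III and 35.6% on the other autosomes, a difference of -10.2 points (-17.1 to -2.53). For the highest quartile of replicate 2 the interval included 0, with 92.7% on III and 91.2% on the other autosomes (1.43 points, -3.96 to 5.33). These are 2 of 8 such differences, chosen by their intervals and unadjusted.

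The 17 unshared replicate 1 peaks of that highest quartile lay in the centre (12) and the right arm (5), with 0 in the left arm. Their scores ran from 619 to 2614, and all 17 overlapped series-level peaks, as did 99.8% of all replicate 1 peaks. The best series-level scores had a median of 46.7 over these 17 and of 63.2 over the 105 shared peaks of the quartile. The nearest replicate 2 peak was 182 to 24939 bp away, with a median of 8291 bp. The highest, from 5722675 to 5730374 in the centre, scored 2614, held 4 narrow peaks with scores up to 87.2 and lay 24939 bp from the nearest replicate 2 peak. In the right arm a pair from 10669129 to 10673928 and from 10674212 to 10675934 scored 1823 and 2226, with the nearest replicate 2 peak at least 18313 bp away. All 5 of the peaks in the right arm lay from 10 to 12 Mb, a stretch taken up below, so they count in both places.

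Strong replicate 2 peaks without a replicate 1 partner also lay in the centre. The 2 highest, from 3788518 to 3802518 and from 6438653 to 6454208, were both at the ceiling and 14001 and 15556 bp wide. They held 6 and 8 narrow peaks, with best scores of 58.8 and 125. The third, from 5182951 to 5190117, scored 2614 and held 6 narrow peaks. The nearest replicate 1 peaks were 4620 to 8395 bp away.

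Sharing was uneven along III. In the windows from 10000001 to 11000000 and from 11000001 to 12000000, 61.8% and 70.4% of replicate 1 peaks were shared, against 93.9% in the first megabase and 93.1% in the last window. Over both windows together 40 of 61 replicate 1 peaks were shared (65.6%, 53.05 to 76.2), against 379 of 440 on the rest of III (86.1%, 82.6 to 89.0). In replicate 2 the shares were 35 of 91 (38.5%, 29.1 to 48.7) and 310 of 614 (50.5%, 46.5 to 54.4). This stretch was chosen after its values were seen. Among 50 megabase windows of the other autosomes with at least 20 replicate 1 peaks, the lowest share was 65.6%, so 0 of them were below the 61.8% of III. For replicate 2, the share from 10000001 to 11000000 on III was 42.5%, and 4 of those 50 windows were lower. So were 3 of the 13 windows of III with at least 20 replicate 1 peaks. That set leaves out the window from 1000001 to 2000000, with 14 replicate 1 peaks, where 26.5% of replicate 2 peaks were shared. Median scores were lower from 10 to 12 Mb, 158 against 200.1 on the rest of III in replicate 1 and 251.5 against 408 in replicate 2, and the part of score in the lower sharing was not tested.

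By part of the chromosome, 1 of 6 unadjusted differences between III and the other autosomes had an interval without 0, that of replicate 2 in the left arm. There 84.2% of replicate 1 peaks were shared, close to the 83.7% of the other left arms, but 67 of 165 replicate 2 peaks (40.6%) against 50.2%, a difference of -9.63 points (-17.8 to -1.08). From 1000001 to 2000000, 9 of 34 replicate 2 peaks were shared. In the right arm 78.99% of replicate 1 peaks on III were shared, against 84.4% of those on the other right arms (-5.38 points, -13.6 to 1.83), and for replicate 2 the shares were 48.8% and 48.04% (0.802 points, -7.64 to 9.28). In the centre 85.8% of replicate 1 peaks on III and 89.4% on the other autosomes were shared (-3.54 points, -8.54 to 0.653). For replicate 2 the centre had 52.7% on III and 57.4% on the other autosomes (-4.68 points, -10.4 to 0.998).

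Shared peaks of III had the higher scores. Their median was 212, against 135 for the 82 unshared peaks, in replicate 1, and 949.9 against 182 for the 360 unshared peaks in replicate 2. In replicate 2 the median width was 4864 bp for shared peaks and 2258 bp for unshared ones. In replicate 1 the order was the other way round, with 3115 bp for shared and 3373 bp for unshared peaks on III, whereas the other autosomes had 3296 and 2785 bp. Wider peaks overlap others more often by chance, so these values are given without a test. Bases in peaks of both replicates came to 1.61 Mb of III, or 79.3% of what replicate 1 peaks covered there and 51.1% for replicate 2. On the other autosomes these shares were 84.07% and 54.6%.

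Where each list had exactly 1 peak, the scores of the replicates were ranked alike to a moderate degree. Over 274 such sites on III the Spearman rho was 0.58 and the Pearson r of log10 scores 0.56, against 0.67 and 0.64 over 1157 sites on the other autosomes. These are descriptions over sites that share 2 libraries, and the single autosomes ran between 0.64 on IV and 0.71 on V in rho. On III, 54 sites (19.7%) were in the top 25% of both lists. At 26 sites (9.49%) the peak was in the top 25% of replicate 2 and below the median of replicate 1, and at 5 (1.82%) the reverse held. These classes were counted on III only, with percentiles over whole lists. In replicate 2, 16.5% of lowest-quartile peaks on III were shared and 92.7% of highest-quartile ones, against 78.5% and 86.1% in replicate 1. Such sites thus come mostly from the higher scores of replicate 2, and nothing is read from 26 against 5. Replicate 2 had the wider peak at 223 of 274 sites on III (81.4%), and midpoints lay a median of 320 bp apart. On the other autosomes these values were 76.6% and 294 bp.

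**Figure D5:**
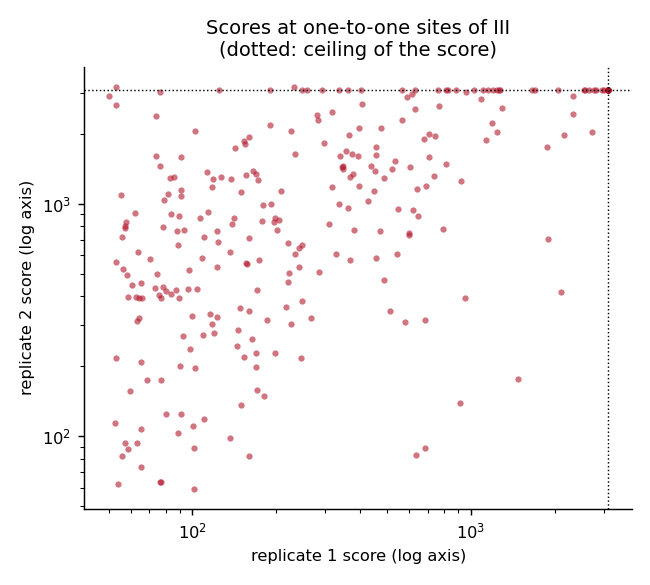
Score of the replicate 1 peak (horizontal, log axis) and of the replicate 2 peak (vertical, log axis) at the 274 sites of III with exactly 1 peak in each list; dotted lines mark the score ceiling of 3100. Points line up along the replicate 2 ceiling, and most sites lie in the upper left part, with a Spearman rho of 0.58.

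Seen from the narrow peaks, 1120 of 3549 on III (31.6%, 30.05 to 33.1) overlapped peaks of both replicates, where 33.2% of all series-level peaks did. A further 1292 (36.4%) overlapped replicate 2 only and 276 (7.78%) replicate 1 only. The 861 in neither list made up 24.3%, where 25.4% of all series-level peaks were in neither. Compared with the other autosomes the class found in replicate 1 only was larger on III, 7.78% against 6.12%, by 1.66 points (0.712 to 2.67), where 6.18% of all series-level peaks were in that class. It differed from IV by 3.04 points (1.87 to 4.19) and from V by 2.60 points (1.34 to 3.83). From I, with 7.16%, and II, with 7.03%, no difference was detectable (0.617 points, -0.585 to 1.83, and 0.751 points, -0.531 to 2.02). For the other 3 classes the interval of the difference included 0. The excess of replicate 1 only was 3.84 points (1.67 to 6.25) in the right arm and 1.72 points (0.466 to 3.10) in the centre, and in the left arm the difference was -1.08 points (-2.68 to 0.851).

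The narrow peaks of the left arm were the least supported. There 175 of 796 (22.0%, 19.2 to 24.99) were found in both replicates and 263 (33.0%) in neither. In the centre the shares were 36.7% in both and 20.7% in neither, and in the right arm 29.4% and 23.9%. Against the 26.9% in both on the left arms of the other autosomes, the difference of III was -4.92 points (-8.08 to -1.55). Those left arms had 32.2% in neither, and there no difference was detectable (0.882 points, -2.70 to 4.59). The other centres had 37.98% in both and 22.1% in neither, and the other right arms 27.3% and 27.1%. Narrow peaks with support from both lists were denser in the centre of III than on its arms, by a ratio of 1.71 (1.52 to 1.94), and those found in neither had a ratio of 0.887 (0.773 to 1.02). On the other autosomes the first ratio ran between 1.47 on I and 2.47 on V, so that of III lay within their range, and the second between 0.906 on IV and 1.03 on V. On III the median score of narrow peaks was 15.6 where both lists had a peak, 10.2 where replicate 1 alone had one, 8.30 where replicate 2 alone had one and 5.24 where neither did.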

How the data were processed

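ChIP for AMA-1 was analysed in 2 samples, each with 1 deposited peak list, and 1 list of the whole series was added. The submitters' processing notes name BWA and the build ce10. The lists carry the build WS220 and name MACS (replicates) or MACS v2 (series), per the file headers and columns. For thresholds, the control and the way samples were combined, the entry is: not given in the sources used here. The value of each peak is the deposited score of the authors' peak caller, with no stated scale.

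From these lists, overlaps of at least 1 bp, runs of overlapping replicate peaks (shared domains), chains of series-level peaks and densities were computed. Each chromosome was taken to end at its last peak (13.8 Mb for III). Arm borders on the other autosomes (I, II, IV and V) were set at 27.0% and 75.1% of length, as on III. Intervals are exact Poisson, exact conditional binomial (ratios), Wilson (shares) or Newcombe (differences of shares), at 95%. Counting was checked on simulated lists with planted overlaps and chains. The tools were scipy 1.17.1, numpy 2.4.6, pandas 2.3.3 and matplotlib 3.10.9 under Python 3.11.15.

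Named domains are the first 10 by mean percentile over the replicates (ties by bases in both), the best 2 of each arm and the 3 with most narrow peaks. The 5 highest series-level peaks, 3 longest stretches without replicate peaks, 3 best-covered windows of 100 kb, and 3 highest unshared peaks of each replicate were also named. The longest chains, the 10 to 12 Mb stretch and the unshared highest-quartile peaks were chosen after their values were seen. The members and lists were chosen with earlier results of these data known. No gene is named, because the gene table at hand is of another build, and no sequence is shown, as no genome of WS220 was used.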

Additional observations from a re-analysis of the deposited data

How the results depend on the processing

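Of 54 alternative values, 20 stayed within the spread or interval of the reported value or on the same side of its threshold, 29 moved beyond it, 5 became weaker and 0 reversed. Among the 20 are the values with 1 replicate for the density ratio and for the ratio of centre to arms. Each of these lies within the SD of the 2 replicates by construction, so they are no sign of stability. The density ratio of III to the other autosomes, 1.35, stayed above 1: 1.33 in covered bases, 1.32 for peaks at or above the median score, 1.33 with peaks closer than 500 bp merged, 1.20 without V, 1.43 in the series-level list and 1.52 without I (added after seeing the data), and 1.348 to 1.355 with 1 replicate. The ratio of centre to arms, 1.21, was 1.66 in covered bases and 1.44 for the higher-scoring peaks, and 1.18 to 1.24 with 1 replicate. The shared percent of replicate 1 peaks, 83.6, was 39.7 by midpoints within 500 bp and 76.5 at equal list lengths. That of replicate 2 peaks, 48.9, was 42.4 under 50% overlap, 28.2 by midpoints and 62.1 at equal lengths. The lower sharing of replicate 2 peaks on III, -4.69 points, had an interval including 0 under 50% overlap (-3.58), by midpoints (-0.964), for the higher-scoring peaks (-5.51) and without 10 to 12 Mb (-3.14, added after seeing the data). Narrow peaks per shared domain, 4.42, came to 5.36 with gaps of up to 500 bp bridged and 2.82 for the higher-scoring narrow peaks. They came to 2.81 to 3.42 with the peaks of 1 replicate as domains. The percent in chains, 69.8, was 50.4 at a gap of 500 bp, 83.1 at 2000 bp, 47.0 for chains of 5 or more and 50.1 for the higher-scoring peaks. The excess of III in chains, 2.20 points, was 1.35 for chains of 5 or more, with an interval including 0. The percent of narrow peaks found in both replicates, 31.6, was 29.6 under 50% overlap and 43.1 for the higher-scoring peaks, and 39.3 to 67.96 when 1 replicate was used. The rho of scores, 0.58, was 0.44 below the ceiling. Merging widened the median peak to 3493 bp in replicate 1, 3758 bp in replicate 2 and 655.5 bp in the series-level list. Read depth is unknown. No paired analysis was possible because input lists were not analysed here. For each value that moved, the cause was not tested.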
